A study of Homo sapiens with 32 samples.

Results

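Transcripts of 7 secreted growth factors, PDGFA, PDGFB, PDGFC, VEGFA, VEGFB, VEGFC and FGF2, were followed in MCF10A, a line of human mammary epithelium that does not form tumours. The genes are named members of 3 ligand families, with no threshold on their values, but were chosen with earlier results of these data known. They are 7 of the 17788 genes with counts, and all 7 were among the 14865 genes that passed the low-count filter. RNA was sequenced from 32 libraries in 8 groups of 4. Clones 27 and 2 were labelled JUNB WT. Clones 1 and 65 were labelled JUNB KO and are called mut here. CRISPR/Cas9 editing of these clones left an extended deletion, and a smaller polypeptide that the JUNB antibody binds was seen in their lysates by the authors. Each clone received solvent, labelled as time 0, or TGFβ1 at 5 ng/ml for 6, 24 or 72 h, in 2 replications. A genotype is therefore represented by 2 clonal lines, and the p-values measure only the spread between these libraries. Each genotype had 1 solvent group, which served all 3 times, and all cultures were collected at the same time after seeding.

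Platelet-derived growth factors are dimers of A, B, C or D chains that bind the receptor tyrosine kinases PDGFRA and PDGFRB, mostly on fibroblasts, pericytes and smooth muscle cells. Vascular endothelial growth factor A acts on blood vessel endothelium through FLT1 and KDR, VEGFB binds FLT1, and VEGFC acts on lymphatic endothelium through FLT4. FGF2 is a heparin-binding fibroblast growth factor that lacks a classical signal peptide. Epithelial cells are a common source of such ligands for neighbouring stroma and vessels. JUNB is a subunit of the transcription factor AP-1, which acts together with SMAD proteins at many genes that respond to TGFβ1.

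The counts over the JUNB gene did not separate the genotypes, with 89.7 to 116.8 CPM (counts per 1e6 counts of the library) in the WT solvent libraries and 69.2 to 172.0 CPM in those of mut, so that they check nothing about the deletion. Library totals lay between 39702412 and 54651906 counts. All 8 mammary epithelial markers listed were present, with a summed level of 9250 to 16630 CPM. Of 5 endothelial markers the 3 in the table summed to 3.88 to 28.6 CPM, with KDR as the main part, PECAM1 and CDH5 not listed and VWF at no more than 0.140 CPM. The fibroblast and pericyte list summed to 7.95 to 37.6 CPM (4 of 5 in the table, LUM not listed) and the blood list to 16.4 to 34.0 CPM (3 of 3), with PTPRC at no more than 0.0498 CPM, CD14 at 2.29 to 28.1 CPM and CD68 at 5.64 to 24.4 CPM. The 5 genes used to check the TGFβ1 response rose in all 6 comparisons of TGFβ1 with solvent. The mut library 1-2 (clone 1, replication 2) stood apart in solvent and at 24 h, and the WT library 27-2 in solvent, for members named below. In bulk RNA, fewer cells of a kind and less RNA per cell cannot be told apart.

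The genes lie on several chromosomes of GRCh38 (GENCODE 44 coordinates). On the minus strand are PDGFA (ENSG00000197461, chromosome 7, 497258 to 520296), PDGFB (ENSG00000100311, chromosome 22, 39223359 to 39244982), PDGFC (ENSG00000145431, chromosome 4, 156760454 to 156971799) and VEGFC (ENSG00000150630, chromosome 4, 176683538 to 176792922). On the plus strand are VEGFA (ENSG00000112715, chromosome 6, 43770184 to 43786487), VEGFB (ENSG00000173511, chromosome 11, 64234584 to 64239264) and FGF2 (ENSG00000138685, chromosome 4, 122826682 to 122898236). FGF2 shares 804 exon bases with NUDT6 on the opposite strand, and the other members share no exon bases with another gene of the table.

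Promoter sequence from RefSeq (GRCh38.p14) was matched by symbol for 4 members, PDGFA with 4 start sites and VEGFB, VEGFC and FGF2 with 1 each. PDGFB, PDGFC and VEGFA had none in that table. The bases before the start site are shown for VEGFC and PDGFA, the members whose level differed between the genotypes in every treatment state, and for VEGFB, which passed the test in none. Capitals mark GC boxes (GGGCGG) and the hypoxia element core GCGTG on either strand, and in VEGFB also a SMAD box (CAGAC, read as GTCTG) that shares its first base with the last of GCGTG. VEGFC spans chr4:176792923-176793172, PDGFA chr7:520297-520476 (the start site nearest the GENCODE gene start, without the 70 bases that lie inside the gene) and VEGFB chr11:64234334-64234583, on the minus, minus and plus strand.
VEGFC: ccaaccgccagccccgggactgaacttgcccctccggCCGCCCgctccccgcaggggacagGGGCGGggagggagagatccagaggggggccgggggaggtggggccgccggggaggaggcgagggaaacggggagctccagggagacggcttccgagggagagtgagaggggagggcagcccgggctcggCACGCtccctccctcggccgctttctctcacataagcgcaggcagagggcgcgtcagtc
PDGFA: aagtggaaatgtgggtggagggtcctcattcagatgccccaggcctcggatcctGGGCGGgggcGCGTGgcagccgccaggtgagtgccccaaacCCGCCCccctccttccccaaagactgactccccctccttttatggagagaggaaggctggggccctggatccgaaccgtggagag
VEGFB: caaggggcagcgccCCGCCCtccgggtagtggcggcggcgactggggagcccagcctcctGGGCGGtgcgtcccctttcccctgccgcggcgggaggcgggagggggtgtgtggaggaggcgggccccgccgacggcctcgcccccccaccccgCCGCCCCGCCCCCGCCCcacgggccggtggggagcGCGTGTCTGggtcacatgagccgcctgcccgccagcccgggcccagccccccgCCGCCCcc

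The 250 bases before the start site held 74.0% G and C in VEGFC, 68.8% in PDGFA and 82.8% in VEGFB. Over 300 bases around each start site (250 before, 50 after), both strands, the GC box was found in all 7 windows of the 4 members and in 45.0% of 35116 promoters, and GCGTG in 6 of 7 against 36.5%. The AP-1 motif TGANTCA was in 0 of 7 against 7.71%, the hypoxia element ACGTG in 0 of 7 against 21.4%, TATAAA in 0 of 7 against 11.5% and CAGAC in 2 of 7 against 45.3%. The VEGFC window carried a single GCGTG, 59 bases before the start site. These are matches of letters only, 4 of the 7 windows belong to PDGFA, and the promoters compared were not matched for G and C content.

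Per kilobase of the union of all annotated exons, mean levels over the 32 libraries were 16.4 CPM for VEGFB, 14.2 for PDGFC, 9.16 for VEGFA, 8.41 for PDGFA, 7.14 for VEGFC, 2.88 for FGF2 and 1.08 for PDGFB. This order depends on the union length, which was 14431 bases for VEGFA and 1970 for VEGFB. Without division by length VEGFA was the highest, at 132.1 CPM, and VEGFB had 32.4 CPM. The order by size of change was another one. The highest group mean exceeded the lowest 11.4-fold for VEGFC, 5.26-fold for PDGFB, 3.55-fold for PDGFC, 2.05-fold for PDGFA, 1.80-fold for VEGFA, 1.45-fold for FGF2 and 1.41-fold for VEGFB. Thus VEGFC varied most and VEGFB least.

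**Figure D1:**
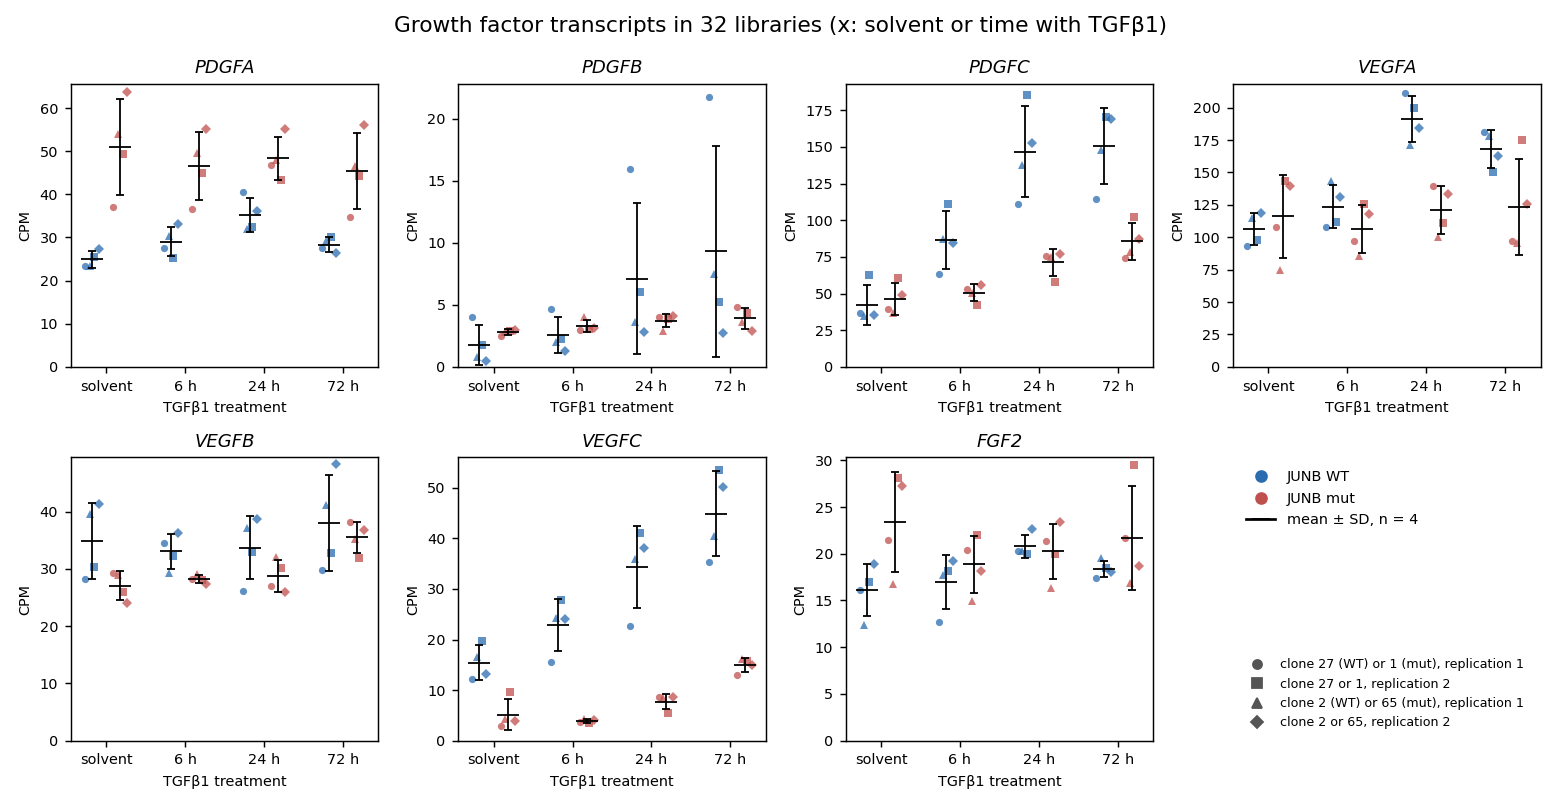
CPM of each growth factor (y axis, from 0) in solvent and after 6, 24 and 72 h of TGFβ1 (x axis), with 1 point per library, marker shape for clone and replication, and black bars for mean ± SD of 4 libraries. VEGFC in mut (means 3.93 to 14.9) lay below WT (15.4 to 44.9) in every state, and PDGFA in mut (45.4 to 51.0) above WT (24.9 to 35.3).

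The first question was which of these ligands respond to TGFβ1 in WT cells. All changes of the 7 members that passed the test were rises, in a list chosen with earlier results known. Of 8 other ligands of these families that were tested, 2 rose and 2 fell in WT at 24 h and again at 72 h. At 6 h 1 of 7 members rose (PDGFC), while 5.13% of all genes tested rose and 11.9% fell. At 24 h 5 of 7 rose (PDGFA, PDGFB, PDGFC, VEGFA and VEGFC), against 14.1% of all genes that rose and 38.0% that fell. At 72 h 4 of 7 rose, PDGFA no longer among them in limma, against 13.9% and 38.4%. The members' median log2 change was 0.22, 0.85 and 0.67 at the 3 times, beside -0.078, -0.176 and -0.191 for all genes. With TMM factors in place of library totals the medians of all genes were -0.0041, 0.0014 and -0.0286, so that WT log2 changes at 24 and 72 h were higher by about this shift. The 3 times share their solvent libraries.

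In mut cells the same comparison gave fewer rises. At 6 h 0 of 7 members passed the limma test (also 0 of 7 at an unadjusted p under 0.05, and 0 in edgeR and DESeq2), against 2.06% of all genes that rose and 4.94% that fell. At 24 h 1 of 7 rose, PDGFC, against 6.75% and 17.1%. At 72 h PDGFC, VEGFC and VEGFB rose, 3 of 7, against 7.81% and 16.3%.

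PDGFC, a ligand secreted in a latent form and activated by proteolysis, rose at more times than any other member. In WT solvent it stood at 37.0 (27-1), 34.6 (2-1), 62.6 (27-2) and 35.3 CPM (2-2). After 6 h it was 63.3, 87.1, 111.2 and 84.2 CPM, after 24 h 111.2, 137.8, 185.3 and 152.9 CPM, and after 72 h 114.8, 147.7, 170.4 and 169.3 CPM in the same order. Every treated WT library thus exceeded every solvent library, and the level after 24 and 72 h overlapped. The log2 changes were 1.05 ± 0.19 (SE), 1.82 ± 0.19 and 1.86 ± 0.19, that is 2.08-, 3.53- and 3.64-fold (adjusted p = 0.000345, 8.56e-09 and 6.85e-09, n = 4 per group, limma). In mut cells PDGFC started at 39.4 (1-1), 36.6 (65-1), 60.9 (1-2) and 48.7 CPM (65-2). It was 53.1, 50.4, 42.5 and 56.2 CPM after 6 h, 75.6, 75.02, 57.7 and 77.2 CPM after 24 h and 74.0, 78.4, 102.1 and 87.5 CPM after 72 h. Only the 72 h libraries all lay above the mut solvent range, and library 1-2 was the lowest at 6 and 24 h. The mut changes were 0.15 ± 0.20, 0.64 ± 0.19 and 0.90 ± 0.19 (adjusted p = 0.713, 0.0155 and 0.000789, limma). Without the solvent library mut 1-1 or mut 65-1 the call at 24 h was lost (adjusted p = 0.0557 and 0.0592).

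VEGFC, the ligand of lymphatic vessel growth, also rose in both genotypes, from a much lower level in mut cells. WT solvent libraries had 12.1 (27-1), 16.6 (2-1), 19.8 (27-2) and 13.1 CPM (2-2). They were followed by 15.6, 24.2, 27.8 and 24.0 CPM at 6 h, 22.7, 35.8, 41.0 and 38.1 CPM at 24 h and 35.4, 40.5, 53.5 and 50.2 CPM at 72 h. The 24 and 72 h libraries lay above the solvent range, and the 6 h libraries overlapped it. The WT changes were 0.58 ± 0.22, 1.14 ± 0.21 and 1.56 ± 0.21 (adjusted p = 0.0680, 3.93e-05 and 3.86e-07, n = 4 per group, limma). Mut solvent libraries had 2.88 (1-1), 4.23 (65-1), 9.68 (1-2) and 3.86 CPM (65-2), mut 6 h libraries 3.78, 4.36, 3.40 and 4.18 CPM, mut 24 h libraries 8.54, 8.34, 5.46 and 8.54 CPM, and mut 72 h libraries 12.96, 16.1, 15.8 and 14.9 CPM. The solvent library 1-2, at 9.68 CPM, stood above its group mates (at most 4.23 CPM), and only the 72 h libraries all exceeded it. At 72 h VEGFC was 3.24-fold higher than in mut solvent (log2 1.70 ± 0.30, adjusted p = 0.000109, limma), beside 2.95-fold in WT. At 6 and 24 h the mut changes were -0.21 ± 0.37 and 0.73 ± 0.33 (adjusted p = 0.794 and 0.110). The series, that is the 4 libraries of 1 clone and replication, entered as a block gave adjusted p = 0.00482 for WT at 6 h and 0.0179 for mut at 24 h. Without the series mut 1-2, VEGFC at 24 h passed the test in mut (adjusted p = 0.0213).

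VEGFA, the main growth factor of blood vessel endothelium, rose in WT cells. It had 93.2 (27-1), 115.2 (2-1), 98.1 (27-2) and 118.9 CPM (2-2) in WT solvent, then 211.7, 170.9, 199.4 and 184.3 CPM at 24 h and 181.6, 177.9, 150.2 and 162.8 CPM at 72 h. Each library of both later times lay above each solvent library, and the 6 h libraries (108.0 to 143.2 CPM) overlapped solvent. The log2 changes were 0.22 ± 0.18, 0.85 ± 0.18 and 0.67 ± 0.18 (adjusted p = 0.459, 0.000160 and 0.00227, limma). Mut libraries had 107.6 (1-1), 74.8 (65-1), 143.4 (1-2) and 139.6 CPM (65-2) in solvent. With TGFβ1 they had 96.9, 85.6, 125.6 and 117.6 CPM after 6 h, 139.6, 100.4, 111.4 and 133.7 CPM after 24 h and 97.0, 95.8, 175.4 and 125.5 CPM after 72 h. The mut groups overlapped throughout, with log2 changes of -0.10, 0.09 and 0.09, each ± 0.18 (adjusted p = 0.795, 0.746 and 0.761).

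PDGFB, the chain that binds both PDGF receptors, was the least abundant member and the one with the widest errors. WT solvent libraries had 4.05 (27-1), 0.811 (2-1), 1.76 (27-2) and 0.453 CPM (2-2), which were 15.96, 3.63, 6.07 and 2.82 CPM at 24 h and 21.7, 7.46, 5.26 and 2.74 CPM at 72 h. Library 27-1 was the highest in each state, so that the ranges of treated and solvent libraries overlapped although each series rose. Clone 27 rose 3.80-fold and clone 2 5.10-fold at 24 h, and 4.65-fold and 8.07-fold at 72 h, as ratios of clone means. The fit gave log2 changes of 0.74 ± 0.79, 2.16 ± 0.71 and 2.38 ± 0.70 (adjusted p = 0.597, 0.0123 and 0.00559, n = 4 per group, limma). Without library 27-1 at 24 h the call at that time was lost (1.59, adjusted p = 0.0506). In mut cells PDGFB ranged over 2.46 to 2.997 CPM in solvent and, with TGFβ1, 2.99 to 4.05 (6 h), 2.92 to 4.12 (24 h) and 2.93 to 4.84 CPM (72 h), and the changes of 0.24 ± 0.59, 0.42 ± 0.59 and 0.49 ± 0.57 did not pass (adjusted p = 0.858, 0.654 and 0.578).

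PDGFA, the chain specific for PDGFRA, passed the limma test in WT cells at 24 h only. It had 23.3 (27-1), 23.4 (2-1), 25.6 (27-2) and 27.4 CPM (2-2) in solvent, and TGFβ1 for 24 h gave 40.5, 31.99, 32.4 and 36.1 CPM, with no overlap. At 6 and 72 h it was 25.2 to 33.0 and 26.5 to 30.1 CPM, and both ranges overlapped solvent. The log2 changes were 0.22 ± 0.16, 0.51 ± 0.15 and 0.19 ± 0.16 (adjusted p = 0.385, 0.00728 and 0.321, limma). The change at 72 h passed in edgeR (0.35, adjusted p = 0.0440) and in DESeq2 (0.36, adjusted p = 0.0247). In mut cells the changes were -0.12, -0.06 and -0.17, each ± 0.14, and none passed (adjusted p = 0.669, 0.801 and 0.391).

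VEGFB and FGF2 moved least. VEGFB had 29.3 (1-1), 28.9 (65-1), 26.0 (1-2) and 24.0 CPM (65-2) in mut solvent and 38.2, 35.1, 31.9 and 36.7 CPM at 72 h, a shift of 0.39 ± 0.13 without overlap (adjusted p = 0.0317, limma). That call was lost with the replications of a clone summed (adjusted p = 0.143) and without the series mut 1-2 (0.0710), and also when 1 library was left out, in 4 of 8 cases (mut solvent 1-2 or 65-2, mut 72 h 1-1 or 65-2, adjusted p = 0.0626 to 0.108). Its WT changes were -0.05 ± 0.13, -0.05 ± 0.13 and 0.12 ± 0.13 (adjusted p = 0.851, 0.762 and 0.468), and the sign at 6 and 24 h turned with TMM factors (0.02 and 0.12). FGF2 had 16.1 (27-1), 12.4 (2-1), 17.0 (27-2) and 18.9 CPM (2-2) in WT solvent and 20.3, 20.3, 19.9 and 22.7 CPM at 24 h. All 4 of these 24 h libraries were above the solvent range, while the change of 0.39 ± 0.18 did not pass (adjusted p = 0.0656). It passed with TMM factors (0.56, adjusted p = 0.00965) and with the series as a block (0.00795). NUDT6, which overlaps FGF2 and whose reads cannot be told apart in the shared stretch without strand, had 3.35 CPM in WT solvent and 2.10 CPM at 24 h, so that it fell by 0.67 ± 0.23 (adjusted p = 0.0152). That fall did not pass with TMM factors (-0.49, adjusted p = 0.0741) and passed with the series as a block (0.00719).

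**Figure D2:**
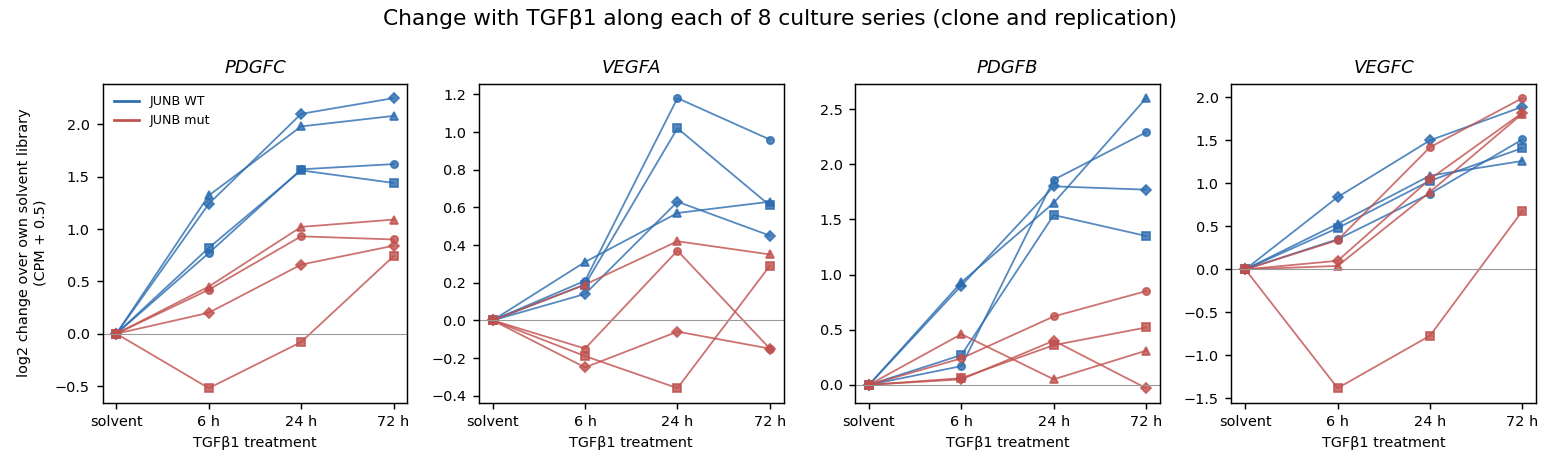
Log2 change of CPM + 0.5 over the solvent library of the same series (y axis) at 6, 24 and 72 h (x axis) for 4 members, with 1 line per series, blue for WT and red for mut, and marker shape for clone and replication. For PDGFC at 24 h the WT series lay between 1.56 and 2.10 and the mut series between -0.08 and 1.02, and for VEGFC at 72 h the ranges 1.26 to 1.89 and 0.68 to 1.99 overlapped.

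The next question was how the genotypes differed in each treatment state. In solvent 3 of 7 members differed, PDGFA and FGF2 higher and VEGFC lower in mut, against 6.38% of all genes higher and 6.32% lower. At 6 h 3 differed, PDGFA higher and PDGFC and VEGFC lower (all genes, 11.3% higher and 10.0% lower). At 24 and at 72 h 4 differed, PDGFA higher and PDGFC, VEGFA and VEGFC lower. Of all genes, 24.7% were higher and 12.2% lower at 24 h, and 26.0% and 13.2% at 72 h. The median log2 difference of all genes was 0.093 and 0.095 at these times, and 0.0058 and 0.0147 with TMM factors. These 4 states have no library in common, although all come from the same 4 clones.

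VEGFC was lower in mut in every state. No mut library reached the WT range in any state, with 9.68 CPM as the highest mut and 12.1 CPM as the lowest WT value in solvent, and 16.1 against 35.4 CPM at 72 h. The log2 differences, from solvent to the longest treatment, were -1.72 ± 0.30, -2.51 ± 0.31, -2.13 ± 0.25 and -1.58 ± 0.20 (adjusted p = 0.000230, 6.79e-07, 1.89e-07 and 5.23e-07, n = 4 per group, limma). After 72 h of TGFβ1 the mut mean (14.9 CPM) was close to that of untreated WT cells (15.4 CPM), and the 2 ranges overlapped. PDGFA went the other way. Mut libraries had 37.0 (1-1), 54.1 (65-1), 49.3 (1-2) and 63.6 CPM (65-2) in solvent. The 6 h libraries had 36.5, 49.6, 44.9 and 55.1 CPM, those of 24 h 46.8, 48.0, 43.3 and 55.2 CPM and those of 72 h 34.8, 46.5, 44.1 and 56.2 CPM. In each state the lowest mut library exceeded the highest WT library, and clone 65 was above clone 1. The differences were 1.01 ± 0.15, 0.68 ± 0.15, 0.45 ± 0.14 and 0.65 ± 0.15 (adjusted p = 2.24e-05, 0.00113, 0.0138 and 0.000773, limma). The call at 24 h was lost with the replications of a clone summed (adjusted p = 0.0675) and without the library mut 24 h 65-2 (0.0528).

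PDGFC did not differ detectably in solvent (0.15 ± 0.20, adjusted p = 0.680) and was lower in mut under TGFβ1, by log2 -0.75 ± 0.19 at 6 h, -1.02 ± 0.18 at 24 h and -0.81 ± 0.18 at 72 h (adjusted p = 0.00455, 6.85e-05 and 0.000638, limma). At each of these times the WT and mut ranges did not overlap. VEGFA likewise stood at 0.09 ± 0.18 in solvent and -0.22 ± 0.18 at 6 h (adjusted p = 0.793 and 0.396), then at -0.67 ± 0.17 at 24 h and -0.49 ± 0.17 at 72 h (adjusted p = 0.00351 and 0.0273). The 24 h ranges did not overlap (100.4 to 139.6 against 170.9 to 211.7 CPM), and those at 72 h did because mut 1-2 had 175.4 CPM. The 72 h call was lost without WT 27-1, WT 2-1, mut 1-1 or mut 65-1 of that time (adjusted p = 0.0627 to 0.110). FGF2 was higher in mut solvent, with 21.5 (1-1), 16.7 (65-1), 28.1 (1-2) and 27.3 CPM (65-2), by 0.53 ± 0.17 (adjusted p = 0.0395). The ranges overlapped, and the call was lost without the series mut 1-2 (0.44, adjusted p = 0.0888), with the 2 groups fitted alone (0.53, adjusted p = 0.0990) and in 6 of 8 fits without 1 library, those without WT 27-1, 2-1 or 27-2 or mut 1-1, 1-2 or 65-2 (adjusted p = 0.0542 to 0.155). For VEGFB (-0.35, -0.23, -0.21 and -0.07) and PDGFB (1.06, 0.57, -0.68 and -0.83) no difference passed.

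**Figure D3:**
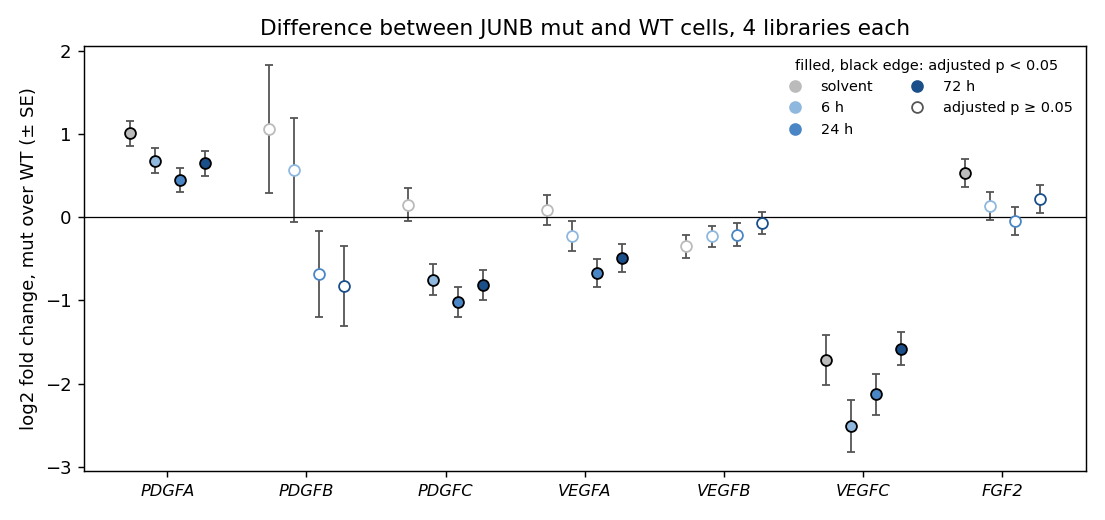
Log2 fold change of mut over WT (y axis, points with SE bars) for each growth factor (x axis) in solvent and after 6, 24 and 72 h of TGFβ1 (shades), filled where the adjusted p was under 0.05. PDGFA lay above 0 in all 4 states (0.45 to 1.01) and VEGFC below 0 (-2.51 to -1.58), while PDGFC crossed from 0.15 in solvent to -1.02 at 24 h.

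Whether the response itself differed was tested by the interaction, in which the WT change is subtracted from that of mut. At 6 h 0 of 7 members passed the limma test (1 at an unadjusted p under 0.05, and 0 in edgeR and DESeq2), where 0.00673% of all genes had a higher and 0.0673% a lower change in mut. At 24 h 2 of 7 were lower in mut, PDGFC and VEGFA, beside 7.72% of all genes higher and 1.93% lower. At 72 h 1 of 7 was lower, PDGFC, beside 9.4% higher and 2.92% lower. The median interaction of all genes was 0.084 at 24 h and 0.104 at 72 h, and -0.0067 and 0.0187 with TMM factors. The shares of all genes given here are those with library totals. These calls for PDGFC and VEGFA passed with TMM factors too. With the series as a block, 1, 5 and 4 of 7 members were lower at 6, 24 and 72 h, where 0.242%, 4.64% and 6.33% of all genes were lower. Of the 5 genes that checked the TGFβ1 response, 1 was lower in mut at 24 and at 72 h, SMAD7. Its interaction was -0.70 ± 0.14 and -0.59 ± 0.14 (adjusted p = 0.00205 and 0.00447, limma).

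For PDGFC the interaction was -0.91 ± 0.28, -1.18 ± 0.27 and -0.96 ± 0.27 at the 3 times (adjusted p = 0.552, 0.00674 and 0.0183, limma), and the blocked fit passed at 6 h too (adjusted p = 0.0246). In 4 of 4 WT series the rise was larger than in any mut series at all 3 times. At 72 h the call was lost without the library mut solvent 1-2 (-0.83, adjusted p = 0.0522). For VEGFA it was -0.76 ± 0.25 at 24 h (adjusted p = 0.0499), a call lost with no low-count filter (0.0578), without the series WT 27-2 (0.117) or mut 1-2 (0.122) and in 13 of 16 fits without 1 library (0.0506 to 0.123), namely all but those without WT 24 h 2-1, mut solvent 65-1 or mut 24 h 1-1. At 72 h it was -0.58 ± 0.25 (adjusted p = 0.129, blocked 0.0152). WT series rose by 0.57 to 1.18 at 24 h and mut series changed by -0.36 to 0.42.

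PDGFB had the largest interaction values, -1.74 ± 0.93 at 24 h and -1.89 ± 0.91 at 72 h, and the widest errors (adjusted p = 0.259 and 0.177). Within series the spread was narrower. WT series rose by 1.54 to 1.86 and mut series changed by 0.05 to 0.62 at 24 h, and the blocked fit passed at both times (adjusted p = 0.00109 and 0.000164). Only the blocked fit of these 2 also passed for PDGFA, with -0.56 ± 0.21 at 24 h and -0.36 ± 0.21 at 72 h (adjusted p = 0.0815 and 0.275, blocked 0.00194 and 0.03997), and for FGF2 at 24 h, with -0.57 ± 0.24 (adjusted p = 0.135, blocked 0.0134). The PDGFA series overlapped at 24 h, where WT rose by 0.33 to 0.78 and mut changed by -0.20 to 0.33. The PDGFA interaction at 24 h also passed in edgeR (-0.67, adjusted p = 0.0394) and in DESeq2 (-0.66, adjusted p = 0.0154). VEGFC, whose level differed most between the genotypes, had no interaction that passed, with -0.79 ± 0.43, -0.41 ± 0.39 and 0.14 ± 0.36 at the 3 times (adjusted p = 0.999, 0.586 and 0.855). At 72 h its fitted value turned sign in edgeR (-0.09) and DESeq2 (-0.11). VEGFB had 0.12, 0.14 and 0.27, each ± 0.19, and none passed (adjusted p = 0.999, 0.727 and 0.372).

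Across the 32 libraries, PDGFC and VEGFC had a Pearson r of 0.81 on log2 CPM, PDGFC and VEGFA 0.73 and VEGFC and VEGFA 0.62. PDGFA ran against VEGFC (-0.62) and VEGFB (-0.52). These r values mix genotype and time and share clones. Among 9633 genes with a mean of at least 10.0 CPM, those most like PDGFC were LPXN (0.964), PDPN (0.961) and SCG5 (0.956), and those most like VEGFC were PTHLH (0.971), NT5E (0.965) and ADAM19 (0.963). PDGFA was most like ABTB1 (0.900), CAMK1D (0.879) and ATF4 (0.864). VEGFA was most like MAP1LC3B (0.884), IL1A (0.881) and CCDC71L (0.873). For FGF2 these were HSPA13 (0.890), PDE4D (0.844) and RB1CC1 (0.830), for PDGFB MYL9 (0.844), MSRB3 (0.806) and TPM1 (0.799), and for VEGFB, with the lowest values, IGFBP6 (0.794), BRD3OS (0.772) and LRP3 (0.762).

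Receptors of these ligands were read in the same cells. Of 14 receptors and co-receptors 12 were tested, and FLT1 and FLT4, the receptors of VEGFB and VEGFC, were not, with at most 0.220 and 0.145 CPM in any library. PDGFRA and PDGFRB were also scarce, with group means of 0.127 to 1.17 and 0.197 to 0.462 CPM. At these low levels PDGFRA rose in WT at 6, 24 and 72 h, by 1.34 ± 0.43, 2.49 ± 0.40 and 2.22 ± 0.41 (adjusted p = 0.0309, 6.1e-06 and 4.37e-05, limma). In mut it changed by 1.01 ± 0.51, 1.94 ± 0.47 and 1.46 ± 0.49 (adjusted p = 0.238, 0.00381 and 0.0281). It was lower in mut at 24 and 72 h (-1.17 ± 0.31 and -1.39 ± 0.34, adjusted p = 0.00403 and 0.00172), and no interaction passed. PDGFRB passed in no comparison. In WT cells 4 of the 12 rose and 4 fell at 72 h, where 13.9% of all genes rose and 38.4% fell, and in mut cells 5 rose and 2 fell (1 with TMM factors), where 7.81% rose and 16.3% fell. The interaction at 72 h was higher for 2 (all genes, 9.4%) and with the series as a block for 7 (all genes, 17.1%). Between the genotypes in solvent 2 were higher in mut (KDR and FGFR3) and 3 lower (NRP1, NRP2 and FGFR2), against 6.38% and 6.32% of all genes.

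KDR, the main signalling receptor of VEGFA, had 5.52 to 15.1 CPM in WT solvent and 21.1 to 27.0 CPM in mut solvent, without overlap (1.20 ± 0.20, adjusted p = 9.15e-05, limma). It fell by 1.67 ± 0.29 in WT and by 0.49 ± 0.17 in mut at 72 h (adjusted p = 2.72e-05 and 0.0375), and the interaction passed (1.18 ± 0.34, adjusted p = 0.0214). The fall of KDR in mut did not pass with TMM factors (-0.41, adjusted p = 0.0813) and passed with the series as a block (0.00118). NRP1, a co-receptor of VEGFA and VEGFC, was the reverse, with 75.9 to 127.5 CPM in WT solvent and 30.0 to 40.8 CPM in mut solvent (-1.48 ± 0.20, adjusted p = 5.18e-06). It rose in both at 72 h, by 0.44 ± 0.18 and 1.02 ± 0.20 (adjusted p = 0.0398 and 0.000321). NRP2, a co-receptor of VEGFC, was lower in mut solvent (-0.69 ± 0.13, adjusted p = 0.000360). Among receptors of FGF2, FGFR3 was higher in mut solvent (1.50 ± 0.23, adjusted p = 4.09e-05) and fell in both genotypes at 72 h, by 2.82 ± 0.36 and 1.82 ± 0.23 (adjusted p = 2.06e-07 and 1.50e-06). FGFR1, at 18.7 to 29.7 CPM in group means, stood at -0.35 ± 0.18 and -0.34 ± 0.18 in WT at 24 and 72 h (adjusted p = 0.107 and 0.118, with the series as a block 0.000743 and 0.000527), and FGFR2 passed the interaction at 72 h (1.24 ± 0.22, adjusted p = 0.000562).

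Genes that release or process these ligands were a list of 22, of which 20 were tested. In WT 9 rose and 7 fell at 72 h (all genes, 13.9% and 38.4%), and in mut 6 and 7 (all genes, 7.81% and 16.3%). The interaction at 72 h passed for FGFBP1 and GPC1 (higher) and ADAMTS1 (lower), against 9.4% and 2.92% of all genes. With the series as a block 4 were higher and 2 lower, against 17.1% and 6.33%. CCBE1, a secreted cofactor of VEGFC maturation picked after its values were seen, had 26.6 to 52.4 CPM in WT solvent and 7.85 to 16.9 CPM in mut solvent (-1.72 ± 0.31, adjusted p = 0.000261), and it stayed lower in mut at 72 h (-1.94 ± 0.26, adjusted p = 1.47e-06). ADAMTS3, of the same list, had differences of the other sign in the 4 states (0.83, 0.77, 1.04 and 0.52), and none passed. In solvent 3 of the list were higher and 2 lower in mut, against 6.38% and 6.32% of all genes. FURIN, a protease that cleaves several growth factor precursors, rose by 0.83 ± 0.06 in WT and 0.64 ± 0.06 in mut at 24 h (adjusted p = 3.89e-11 and 4.99e-08). PLAT, which can activate PDGFC, was higher in mut in all 4 states (1.29 to 1.36, adjusted p = 6.86e-06 to 4.52e-05). Against solvent it stood at -0.35 at 24 and 72 h in WT and at -0.29 and -0.30 in mut (adjusted p = 0.151, 0.154, 0.311 and 0.285), and these 4 values passed with the series as a block (0.00537, 0.00623, 0.0292 and 0.0225). PLAU, the urokinase gene, rose by 2.97 ± 0.25 in WT and 1.77 ± 0.24 in mut at 24 h (adjusted p = 1.50e-10 and 6.59e-06). FGFBP1, which carries FGF2 out of the matrix, fell by 3.04 ± 0.32 in WT at 72 h (adjusted p = 8.58e-09) and stood at -0.35 ± 0.27 in mut (adjusted p = 0.371), with an interaction of 2.69 ± 0.42 (adjusted p = 0.000155).

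**Figure D4:**
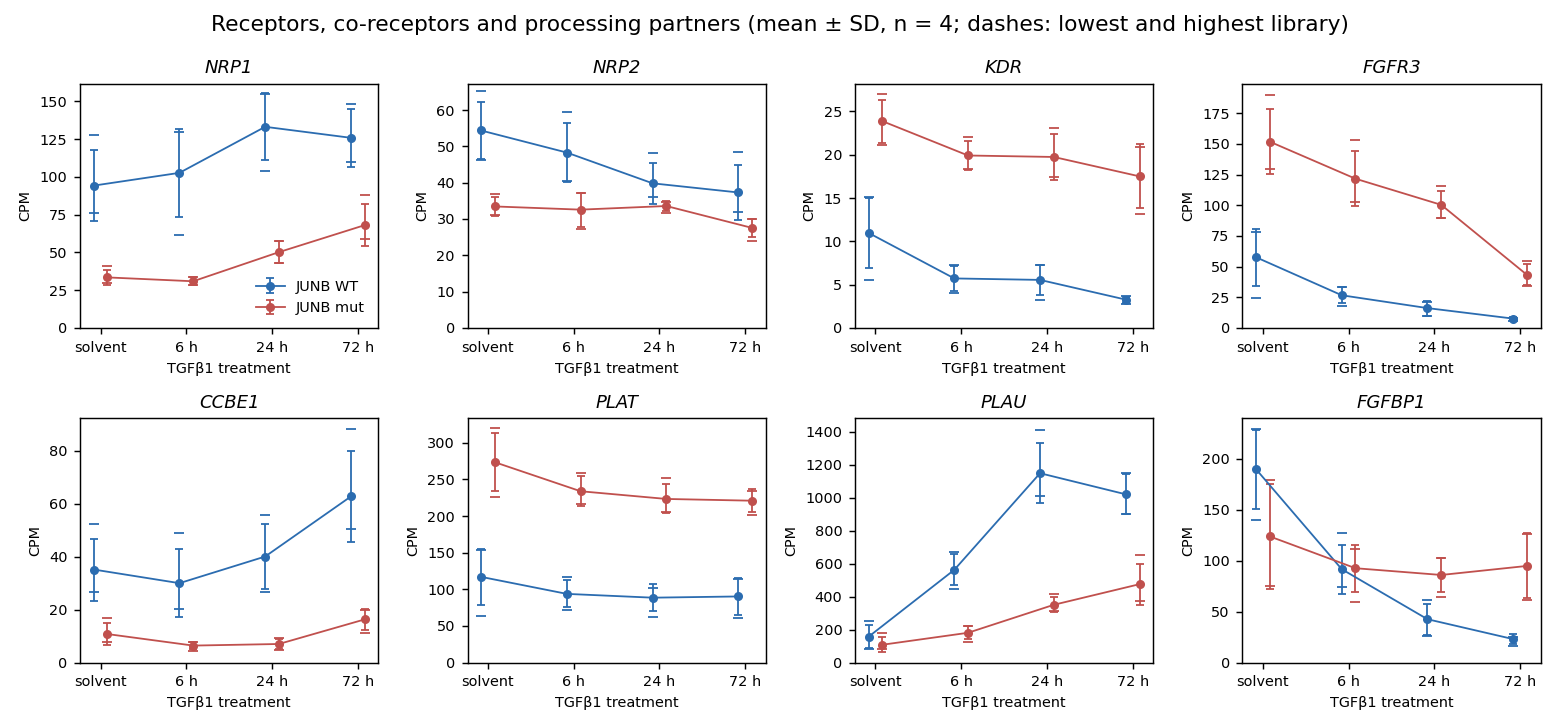
CPM (y axis, from 0) of 4 receptor and 4 processing genes in solvent and after 6, 24 and 72 h of TGFβ1 (x axis), as mean ± SD of 4 libraries per group with dashes for the lowest and highest library, blue for WT and red for mut. NRP1 (94.2 against 33.4 in solvent) and CCBE1 (35.2 against 10.8) were lower in mut, and KDR (10.97 against 23.9) and FGFR3 (57.6 against 151.8) higher.

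Other ligands of the 3 families numbered 14, of which 8 were tested. At 72 h 2 were higher and 2 lower in WT (3 and 2 with TMM factors or the series as a block), against 13.9% and 38.4% of all genes. In mut 0 passed the limma test at 72 h (2 at an unadjusted p under 0.05, 1 with TMM factors, 1 with the block), where 7.81% of all genes rose, or 11.0% with the block. PGF, a further VEGF family ligand, fell by 1.19 ± 0.19 in WT at 72 h (adjusted p = 5.72e-06) and stood at 0.31 ± 0.17 in mut (adjusted p = 0.189), with an interaction of 1.50 ± 0.25 (adjusted p = 0.000355). FGF5, added after its values were seen, was lower in mut in every state. From solvent to 72 h the differences were -2.71, -3.31, -3.69 and -3.38 (adjusted p = 0.00816, 0.000721, 6.87e-06 and 4.51e-07, limma). Its interaction at 72 h did not pass (-0.67 ± 0.81, adjusted p = 0.649). Between the genotypes at 72 h 2 of the 8 were higher in mut and 1 lower (2 and 3 with TMM factors), against 26.0% and 13.2% of all genes. Of 15 genes known as HIF1A targets in hypoxia, a group that VEGFA belongs with, 4 rose and 5 fell in WT at 72 h (5 and 2 with TMM factors), where 13.9% of all genes rose and 38.4% fell. In mut 3 rose and 1 fell (3 fell with the series as a block), where 7.81% of all genes rose and 16.3% fell (22.9% with the block). At 72 h their interaction passed for PDK1 (0.48 ± 0.15) and SLC2A1 (0.36 ± 0.11), higher in mut, and for ANGPTL4 (-0.72 ± 0.24), lower in mut (adjusted p = 0.0277, 0.0270 and 0.0453, limma), against 9.4% and 2.92% of all genes. With TMM factors the calls were 0 higher and 1 lower. With the series as a block they were 5 higher and 1 lower, against 17.1% and 6.33% of all genes. VEGFA had -0.58 ± 0.25 in that comparison.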

How the data were processed

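RNA was measured in 32 MCF10A libraries (2 genotypes, 2 clones each, 2 replications, 4 treatment states) prepared with a kit that keeps no strand. The authors trimmed reads with Trimmomatic, aligned them to GRCh38 with STAR and counted them with STAR, and the deposited values are raw counts per gene. Whether counting used strand is not given in the sources used here. Low counts were removed with edgeR 4.0.16 (filterByExpr, at least 10 counts and a total of 15), which left 14865 of 17788 genes. They were scaled by library total and fitted with voom of limma 3.58.1 (R 4.3.3), model ~0 + condition over all 32 libraries. Adjusted p-values are two-sided limma values with Benjamini-Hochberg adjustment over all genes tested in a comparison, and a call is an adjusted p under 0.05. The 13 comparisons were TGFβ1 against solvent at 3 times per genotype, mut against WT in 4 states and the interaction at 3 times.

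The growth factors and all gene lists were chosen with earlier results of these data known. Named beside the 7 members were list members that passed the interaction at 72 h, the receptors PDGFRA, PDGFRB, FLT1, KDR, FLT4, NRP1, NRP2 and FGFR1 to FGFR3, the genes PLAT, PLAU, FURIN and FGFBP1, and for each member the 3 genes of at least 10.0 CPM most correlated with it. CCBE1, ADAMTS3 and FGF5 were added after their values were seen, and NUDT6 for its overlap with FGF2. Genes were named with GENCODE 44 (17763 of 17788), which also gave exon lengths. Library totals were 39702412 to 54651906 counts, and no per-sample column was left unused. Replicate libraries differed beyond sampling noise (chi-square over genes, at least 11.5 per degree of freedom), and each was counted as 1 sample. That spread does not show that replications of a clone are independent samples of a genotype. Alternatives were TMM factors, edgeR quasi-likelihood, DESeq2 1.42.0, no filter, the groups of a comparison alone, replications of a clone summed, the series as a replicate block, and leaving out each library, WT 27-2 or mut 1-2.

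A series is the 4 libraries of 1 clone and replication number, as the labels give them. Deviations from group means correlated at 0.346 on average over 48 pairs of the same series and at -0.11 over 144 pairs of other series of the genotype. Such deviations cancel within a group, so that a positive value for the same series pushes the other value below it to the negative side. The value for other series is therefore no independent contrast.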

Additional observations from a re-analysis of the deposited data

Results flagged for a closer look

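In 5 of 56 groups of 4 libraries, 1 library lay apart from the other 3 by Dixon's criterion, where chance gives about 1 in 20 groups. PDGFC was 62.6 CPM in WT solvent 27-2 against 34.6 to 37.0 in the others, and 57.7 CPM in mut 24 h 1-2 against 75.02 to 77.2. VEGFC was 5.46 CPM in mut 24 h 1-2 against 8.34 to 8.54. PDGFB was 4.05 CPM in mut 6 h 65-1 against 2.99 to 3.12, and FGF2 was 22.7 CPM in WT 24 h 2-2 against 19.9 to 20.3. Both mut 24 h values belong to the library 1-2.

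The response to TGFβ1 differed between the genotypes, by the test of the difference itself, for PDGFC at 24 h (-1.18 on the log2 scale) and at 72 h (-0.96) and for VEGFA at 24 h (-0.76). The VEGFA call (limma, adjusted p = 0.0499) was lost in 13 of 16 fits without 1 library, with no low-count filter and without the series WT 27-2 or mut 1-2, and the PDGFC call at 72 h was lost without the library mut solvent 1-2 (adjusted p = 0.0522).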

How the results depend on the processing

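Of 1645 recomputed values of the 7 members in 13 comparisons, 1533 kept direction and side of the threshold, 42 lost and 33 gained the call, and 37 changed sign. Of 31 called values 0 changed sign and 23 kept the call in all alternatives. The series as a replicate block moved the number of members called from 1 to 2 (WT 6 h), 1 to 2 (mut 24 h), 0 to 1, 2 to 5 and 1 to 4 (interaction at 6, 24 and 72 h), and in the other 4 comparisons with solvent changed 1 call (FGF2, WT 24 h). Summing replications gave 2 at WT 6 h and 2 at mut 24 h, and DESeq2 gave 2 for the interaction at 72 h. For the interaction at 24 h 1 member remained with no low-count filter, without series WT 27-2 and without series mut 1-2, and mut 24 h gave 2 without series mut 1-2. Leaving out 1 library gave 1 to 2 members at WT 6 h, 0 to 2 at mut 24 h, and 1 to 3 and 0 to 2 for the interaction at 24 and 72 h.

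Signs turned only for values that were not called. With TMM, edgeR and DESeq2 they were 0.02, 0.002 and 0.01 (VEGFB, WT 6 h), 0.12, 0.13 and 0.13 (VEGFB, WT 24 h) and 0.03, 0.01 and 0.02 (PDGFA, mut 24 h). VEGFC at 72 h gave an interaction of -0.09 in edgeR and -0.11 in DESeq2. Without series mut 1-2, VEGFC was 0.19 at mut 6 h and 0.08 in the interaction at 24 h, and VEGFA -0.02 between genotypes in solvent. Leaving out 1 library, VEGFB spanned -0.15 to 0.03, -0.16 to 0.07 and -0.004 to 0.23 in WT at 6, 24 and 72 h and -0.18 to 0.05 between genotypes at 72 h. FGF2 spanned -0.04 to 0.21 (WT 6 h), -0.26 to 0.01 (mut 72 h) and -0.11 to 0.06 (genotypes, 24 h), PDGFA -0.26 to 0.001 and -0.20 to 0.06 (mut 6 and 24 h). VEGFA spanned -0.30 to 0.01, -0.10 to 0.21 and -0.11 to 0.20 (mut 6, 24 and 72 h) and -0.02 to 0.29 (genotypes, solvent), and VEGFC -0.43 to 0.13 (mut 6 h) and -0.08 to 0.48 (interaction, 72 h). The cause of these changes was not tested. The block could not be used between genotypes, since no series holds both.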
